A study of Apis mellifera with 27 samples.

Results

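Para is the honey bee gene for the pore-forming subunit of the voltage-gated sodium channel. RefSeq places it on chromosome 9 of the assembly Amel_HAv3.1, from 6440200 to 6501762, and it is studied here through the peaks of 4 histone modifications in the brain. The members are all peaks that overlap this span or the 10 kb on either side of it, which is the window from 6430200 to 6511762. They numbered 234 of the 438413 peaks in 24 deposited lists. The gene was chosen by the positions and the caste-restricted pattern of its peaks in these lists, so its own values are described without a test. A 2-against-2 comparison could in any case not reach a two-sided exact permutation p below 0.333.

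The lists come from chromatin immunoprecipitation and sequencing (ChIP-seq) of brains of the honey bee, Apis mellifera. Brains were taken from newly emerged adult drones, which are haploid males, and from newly emerged queens and workers, which are diploid females. The optic lobes had been removed, all bees were offspring of the same mother queen, and no treatment or genetic alteration is named for any group. Each of the 3 castes had 2 libraries for each of the 4 antibodies, against H3K27ac, H3K4me3, H3K4me1 and H3K27me3, and each library was made from a pool of 5 brains. A pool mixes neurons, glia and other cells, so a mark in few cells and a weak mark in many cells cannot be told apart.

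Voltage-gated sodium channels open when the membrane of a neuron is depolarised, and the inward sodium current that follows carries the action potential along the axon. In Drosophila, where the gene is called paralytic after the loss of movement in heat-sensitive mutants, it is the main sodium channel of neurons, its transcripts are extensively spliced and edited, and its product is the target of pyrethroid insecticides. Of the marks profiled, H3K4me3 is typical of active gene starts, H3K27ac of active starts and enhancers, and H3K4me1 of enhancers and gene bodies, whereas H3K27me3 is laid down by Polycomb proteins over silenced genes.

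Recovered from the deposited values, the number of ChIP tags that MACS2 kept was lowest at 4.20 M, for a drone H3K4me3 library, and highest at 25.1 M, for a queen library of H3K4me1. Kept tags are by default counted once per position and strand, so they are not the reads sequenced or mapped, and the mapped totals that the study lists for H3K4me3 and H3K27ac are not lowest in drones. Drone libraries kept the fewest tags of each mark on average, with H3K4me3 at a mean of 4.71 M in drones, 16.5 M in queens and 17.4 M in workers. The corresponding H3K27ac means were 9.78 M, 14.96 M and 20.8 M. Lists with few kept tags can lack weak peaks, and the part of this in the differences below was examined by thinning and by equal list lengths. Fewer kept tags did not always go with shorter lists. Drone H3K4me1 lists held 18985 and 21623 peaks and those of workers 12475 and 14070. For comparison between libraries, the height of a peak is given as its summit pileup divided by the genome-wide mean background pileup of the same library. The fold is the enrichment of a summit over the local background as deposited.

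Para is 61.563 kb long and 5.49% of the 12255 genes on placed chromosomes are longer. The RefSeq table lists 37 transcripts for it but gives neither strand nor exons, so positions are stated in kb from the lower-coordinate end of the gene, and a peak inside the span may be exonic or intronic. The table puts 9 other genes in the window, of which 5 lie within or across an end of Para, and these 5 are all long non-coding RNA (lncRNA) genes. LOC100578608 spans 8.37 to 11.2 kb, LOC100577999 spans 14.2 to 16.2 kb, LOC113218998 spans 28.7 to 29.8 kb and LOC102656759 spans 57.1 to 59.0 kb. LOC113218999, from 61.3 to 62.4 kb, crosses the upper end. The protein-coding neighbours are LOC409515 and LOC100576876 below the gene and LOC726213 above it, and the microRNA gene Mir2765 lies further up, at 65.8 to 65.9 kb.

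H3K27ac was the most widespread mark at Para, and no list held an H3K27me3 peak there. H3K27ac gave 24 and 24 peaks in drone libraries, 23 and 28 in queen libraries and 25 and 31 in worker libraries. H3K4me3 gave 6 and 5 peaks in drones, 10 and 12 in queens and 7 and 6 in workers. H3K4me1 gave 5 and 3 peaks in drones, 10 and 6 in queens and 5 and 4 in workers. Queens thus had the most H3K4me3 and H3K4me1 peaks in the deposited lists, without overlap with either other caste, whereas the H3K27ac counts of queens overlapped those of the other castes. After thinning, both queen counts stayed above the others for both marks. With equal list lengths this was lost. H3K4me3 counts were then 5 and 5 in drones and 5 and 6 in queens, and H3K4me1 counts 6 and 5 in queens and 5 and 2 in workers. Shares over all genes are given below for covered length and not for peak counts.

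**Figure D1:**
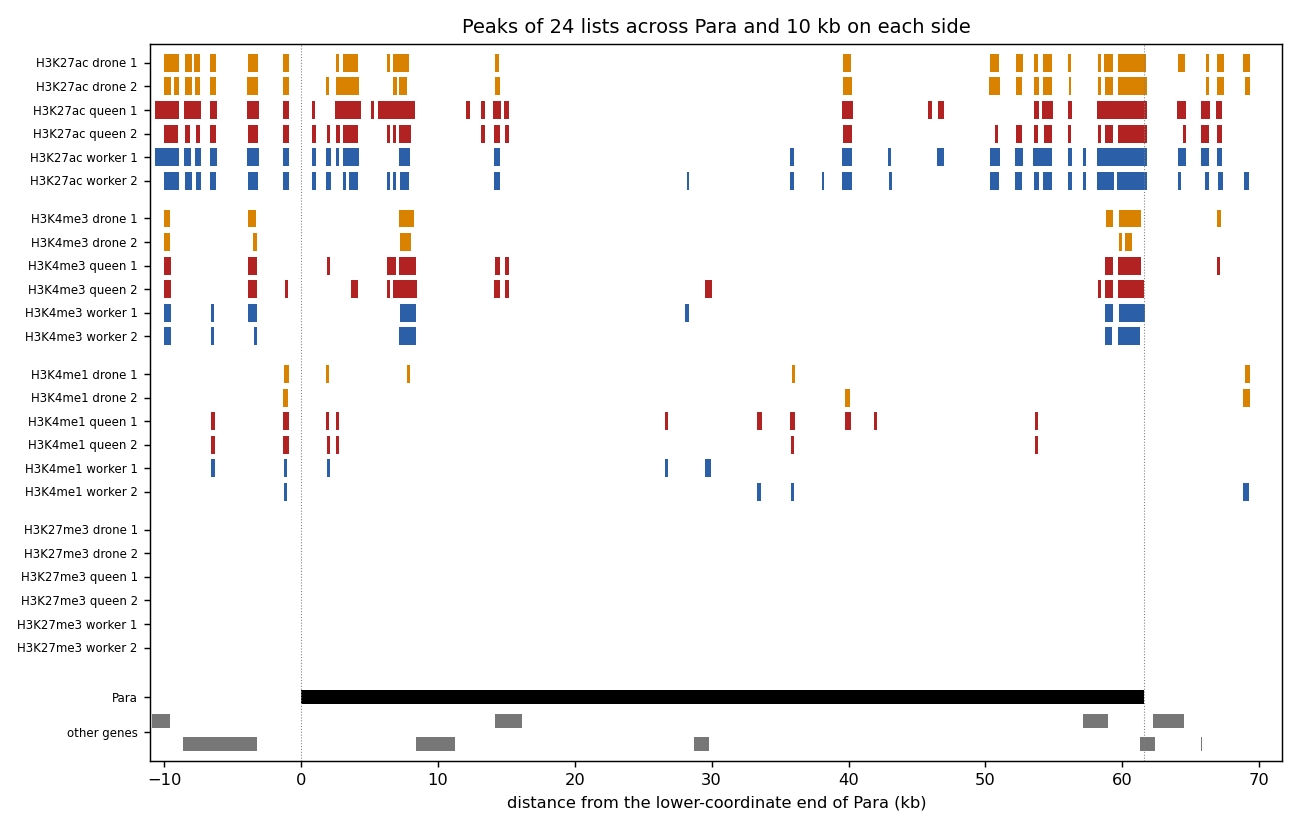
Peaks of the 24 lists along the Para window. The horizontal axis is the distance in kb from the lower-coordinate end of Para, each row is 1 library, orange, red and blue bars are drone, queen and worker peaks, and the black and grey bars at the foot are Para and the 9 other genes. H3K27ac and H3K4me3 gather mostly in the first 15 kb and the last 12 kb of the gene. H3K4me1 peaks are few and also lie in its middle, and the H3K27me3 rows are empty.

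The base pairs of the window under peaks gave the same order for H3K4me3. They came to 4616 and 2172 bp in drone libraries, 6354 and 7853 bp in queen libraries and 5380 and 4216 bp in worker libraries. The means were 3394 ± 1728 bp in drones, 7104 ± 1060 bp in queens and 4798 ± 823 bp in workers (SD, n = 2 each). Both queen libraries exceeded all 4 others, with differences larger than the replicate spread, while drones and workers overlapped over the window. Over the gene span alone, both drone libraries were below both queen libraries at Para as at 61.6% of the genes with H3K4me3, and both queen libraries were above both worker libraries at Para as at 37.2%. Drones and workers did not overlap over the gene span, with both drone libraries below both worker libraries at Para as at 38.1%. With the same number of H3K4me3 peaks taken from each list, the separation of queens over the window was lost, at 4111 and 2172 bp in drones, 4087 and 5631 bp in queens and 4301 and 3488 bp in workers. After thinning to the lowest number of kept tags it remained only narrowly, at 4616 and 2172 bp in drones, 4980 and 6339 bp in queens and 4881 and 4027 bp in workers. The lower queen value then exceeded the higher worker value by far less than the replicate spread.

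H3K4me1 was sparse in each caste. It covered 1403 and 1178 bp of the window in drones, 2774 and 1681 bp in queens and 1408 and 1219 bp in workers, with means of 1291 ± 159 bp, 2228 ± 773 bp and 1314 ± 134 bp. Both queen libraries were again above the other 4. Over gene spans this holds for queens against drones at 35.6% of genes with the mark and for queens against workers at 50.6%. With equal list lengths the queen and worker values met, at 1407 bp in the lower queen library and 1408 bp in the higher worker library. After thinning to the lowest number of kept tags both queen libraries stayed above the other 4. They then had 2101 and 1681 bp, against 793 and 1178 bp in drones and 1408 and 549 bp in workers. Queen H3K4me1 libraries also had the most kept tags of that mark, at a mean of 24.1 M against 13.4 M in drones and 15.8 M in workers.

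H3K27ac covered 14620 and 13776 bp in drones, 19248 and 14061 bp in queens and 17307 and 15477 bp in workers. Its means were 14198 ± 597 bp in drones, 16655 ± 3668 bp in queens and 16392 ± 1294 bp in workers. Drone values lay below worker values, while the queen replicates differed from each other by more than any pair of caste means and overlapped both other castes over the window. The drone-below-worker order, over gene spans, is found at 31.9% of genes with H3K27ac. Over the gene span of Para alone, both drone values were also below both queen values, an order found at 26% of genes. After thinning the drone and worker values overlapped, at 14620 and 13776 bp in drones against 16485 and 14423 bp in workers.

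**Figure D2:**
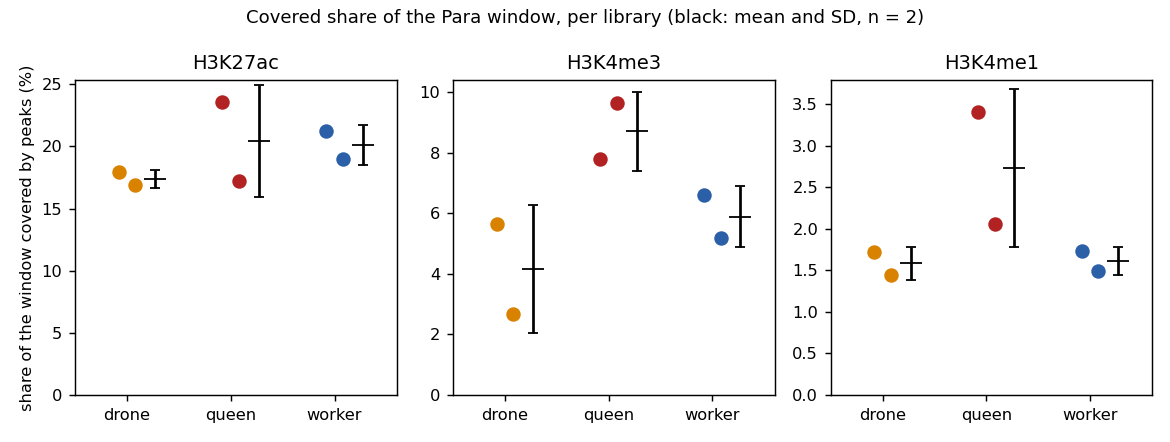
Share of the 81.563 kb window under peaks, in percent, for the marks with peaks. Points are the 2 libraries of drones, queens and workers, and black bars are their mean and SD. Queens stand above the other castes in H3K4me3 and H3K4me1, and the H3K27ac points of queens overlap those of the other castes.

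Set against genes of 50 kb or longer, most of which are longer than Para, its covered share was high for H3K4me3 and low for H3K4me1. H3K4me3 covered 3.88 ± 2.02% of the gene in drones, 9.19 ± 1.59% in queens and 5.81 ± 0.617% in workers, and only 2.90%, 0.378% and 1.01% of the 794 long genes had a higher mean share in these castes. H3K27ac covered 14.6 ± 0.0471% in drones, 18.3 ± 4.14% in queens and 17.96 ± 1.24% in workers, with 14.1%, 13.0% and 12.6% of long genes higher. For H3K4me1 the shares were 0.780 ± 0.335%, 2.48 ± 1.28% and 1.16 ± 0.335%, and 80.1%, 66.9% and 68.8% of long genes were higher. Against all 12255 placed genes the H3K4me3 rank was less extreme, and the H3K4me1 rank changed from low to above the median. For H3K4me3, 17.7% of these were higher in drones and in workers, and slightly fewer in queens. For H3K4me1, 31.6% were higher in drones, 30.5% in queens and 28.3% in workers, with a median share of 0% over all placed genes in each caste. No ranks matched for length were computed, so the part of gene length in them was not tested.

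The Polycomb mark H3K27me3 was far from the gene in every library. Its nearest peak lay between 42.0 and 377 kb below Para and between 173 and 255 kb above it. Of all placed genes 80.5% had no H3K27me3 peak in any of the 6 libraries, and among genes of 50 kb or longer this was so for 24.8%. Most of those long genes are longer than Para, and no share matched for length was computed. The absence of a peak is the absence of a call in these lists.

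Within the gene H3K27ac and H3K4me3 were concentrated at both ends. H3K4me1 was not, with a mean share over the 6 libraries of 2.57% in the first 10 kb. Its mean share was 3.65% from 30 to 40 kb and 0% from 60 kb to the upper end. H3K27ac covered between 25.5% and 51.0% of the first 10 kb across the 6 libraries, and between 29.3% and 50.7% of the stretch from 50 to 60 kb. From 60 kb to the upper end the gene was covered by H3K27ac in full in all 6. Between 20 and 30 kb its share was 0% in 5 libraries and 1.97% in worker replicate 2. The longest stretch of Para without a peak of any mark in any library measured 11.4 kb, from 15.2 to 26.6 kb. H3K4me3 had an even longer gap of 28.2 kb, from 30.0 to 58.2 kb.

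Merging the overlapping peaks of the 6 libraries of a mark gave 31 H3K27ac regions, 15 H3K4me3 regions and 13 H3K4me1 regions in the window. A peak from each of the 6 libraries was present in 14 H3K27ac regions, 4 H3K4me3 regions and 1 H3K4me1 region. Over all regions of the placed chromosomes the same holds for 36% of H3K27ac, 21.3% of H3K4me3 and 4.58% of H3K4me1 regions. Restriction to 1 caste, meaning a peak in both of its libraries and in none of the other 4, was found for 5 H3K27ac regions, 3 H3K4me3 regions and 2 H3K4me1 regions, against 9.64%, 10.2% and 16% of regions genome-wide. Of these 10, queens held 6, workers 4 and drones none, although an H3K27ac region at 68.8 to 69.3 kb became restricted to drones under each alternative list described below. Another 5 H3K27ac, 6 H3K4me3 and 3 H3K4me1 regions rested on a single library, against 21.5%, 39% and 39.7% genome-wide, and 6, 2 and 7 were present in other mixtures of libraries, against 26%, 24.4% and 33.2%. The last H3K27ac region was found in queens and workers only.

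These counts follow from few libraries, and each library left out loosens the definition. Without queen replicate 2, 8 H3K27ac regions were restricted to 1 caste in place of 5. Without queen H3K4me3 replicate 1 there were 8 in place of 3, and without queen H3K4me3 replicate 2 there were 5. Without worker H3K4me1 replicate 2 there were 4 in place of 2.

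H3K4me3 peaks were present in all 6 libraries at 4 places, and none of them was at the lower end of Para. Another region, from 58.7 to 59.3 kb, lacked a peak only in drone replicate 2. The region with the highest fold, from −10.0 to −9.47 kb, lies over the upper end of LOC409515, with folds of 20.6 and 14.1 in drones, 18.9 and 19.8 in queens and 11.04 and 12.2 in workers. Another, from −3.90 to −3.19 kb, crosses the upper end of LOC100576876 and had folds between 3.25 and 7.18. The upper end of Para carried the region from 59.7 to 61.7 kb, with folds of 5.89 and 5.61 in drones, 5.93 and 3.73 in queens and 4.79 and 5.05 in workers. The heights there overlapped between all 3 castes, at 23.7 and 15.2 in drones, 18.2 and 16.9 in queens and 15.86 and 17.02 in workers.

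The tallest H3K4me3 region in the window lay inside Para, from 6.27 to 8.46 kb, and its upper edge reaches the lower end of the lncRNA gene LOC100578608. Its heights were 46.3 and 40.5 times background in drones, 36.6 and 34.8 in queens and 14.5 and 12.5 in workers. Drones were above queens and queens above workers without overlap, and the ratio of mean heights was 1.21 for drones over queens and 2.65 for queens over workers. An order with both worker heights lowest was found at 83% of H3K4me3 regions shared by all libraries, and one with both drone heights highest at 39.7%. The median height over those 3062 regions was 27.2 and 19.0 in drones, 19.7 and 18.6 in queens and 13.6 and 13.7 in workers.

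H3K27ac overlay this region, from 5.60 to 8.36 kb, with the same order of castes. Heights were 30.7 and 28.8 in drones, 20.4 and 26.4 in queens and 12.3 and 13.1 in workers. The background in this stretch was raised in all libraries, to between 4.10 and 5.70 times the genome-wide mean at the tallest summit. The folds over that background were 7.18 and 6.78 in drones, 3.54 and 4.83 in queens and 2.79 and 2.83 in workers.

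In the upper part of the gene the shared H3K27ac regions differed little between castes. The widest, from 58.1 to 61.8 kb, spans the upper end of Para and the lncRNA genes LOC102656759 and LOC113218999, with heights of 41.7 and 27.9 in drones, 28.8 and 44.1 in queens and 37.9 and 39.1 in workers, which overlap. The region from 39.5 to 40.3 kb, the only shared one in the middle of the gene, had heights of 14.8 and 14.4 in drones, 10.1 and 15.2 in queens and 12.9 and 12.7 in workers. Drones were there slightly above workers, and queens overlapped both. At 53.5 to 54.9 kb the heights were 20.4 and 15.4 in drones, 16.6 and 19.1 in queens and 18.1 and 21.6 in workers, and at 56.0 to 56.3 kb they all lay between 6.92 and 7.91.

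Across the 14 shared H3K27ac regions, both worker heights were the lowest in 7, both queen heights the highest in 4 and both drone heights the highest in 3. Over all shared H3K27ac regions these orders hold for 46.3%, 12.7% and 29.5%. Below the gene, the region at −3.96 to −3.06 kb, over the upper end of LOC100576876, had heights of 32.2 and 29.4 in drones, 25.1 and 30.1 in queens and 15.8 and 16.7 in workers, with workers lowest. The one at −10.7 to −8.90 kb, over the upper end of LOC409515, held the highest H3K27ac folds of the window, at 29.1 and 26.0 in drones, 31.8 and 31.1 in queens and 21.4 and 24.4 in workers. Between Para and LOC100576876, at −1.35 to −0.842 kb, heights were 13.4 and 12.8 in drones, 15.04 and 15.6 in queens and 9.51 and 11.6 in workers, so that queens were highest and workers lowest, without overlap.

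Inside the gene near the lower end, the region from 2.51 to 4.39 kb had heights of 24.2 and 21.9 in drones, 23.9 and 31.4 in queens and 13.0 and 13.8 in workers. The region from 65.7 to 66.4 kb spans the microRNA gene Mir2765, which ends at 65.9 kb. Peaks of both queen libraries and of worker replicate 1 covered Mir2765, and those of the other libraries began above it. The summits lay above it, at 66.2 kb, in all 6 libraries. Heights were 6.93 and 7.36 in drones, 9.23 and 12.9 in queens and 5.08 and 5.61 in workers, so that queens were highest and workers lowest.

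**Figure D3:**
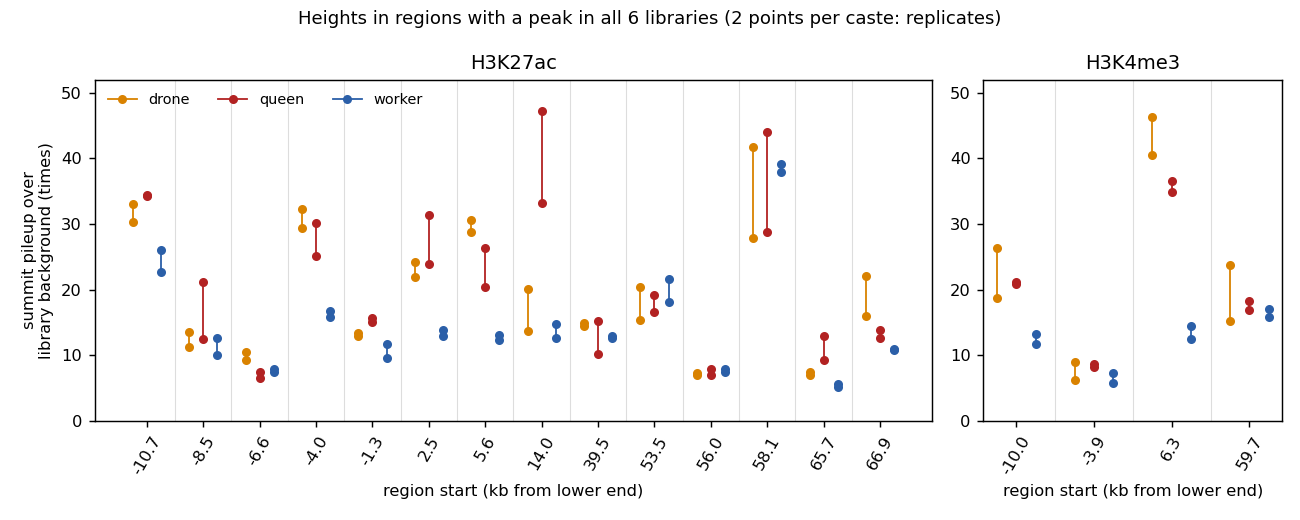
Heights at the 14 H3K27ac and 4 H3K4me3 regions with a peak in all 6 libraries, ordered along the window by the start of the region in kb. The vertical axis is the summit pileup over the library's background, and each caste has 2 joined points for its replicates, with drones left of queens and queens left of workers. The queen points at the region that starts at 14.03 kb, 33.3 and 47.2, stand above all others there, and the H3K4me3 points of workers at 6.3 kb stand below.

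Queens stood apart from both other castes in a stretch from 13.1 to 15.2 kb, around the lower end of the lncRNA gene LOC100577999. In both of their libraries queens held there 3 H3K27ac regions and 2 H3K4me3 regions, while drones and workers held 1 H3K27ac region and no H3K4me3. The stretch was picked out after its values were seen.

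The H3K27ac region common to all castes, at 6454232 to 6454800 on chromosome 9, or 14.03 to 14.6 kb, crosses the lower end of LOC100577999 at 14.2 kb. Its summits lay within 17 bp of each other in the 6 libraries. The summit pileups were 142 and 80 tags in drones, 418 and 430 in queens and 216 and 202 in workers. Taken over the background of each library, the heights were 20.1 and 13.7 in drones, 33.3 and 47.2 in queens and 12.6 and 14.7 in workers. Both queen libraries were above the other 4, and the drone and worker values overlapped.

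On mean height, drones were at 16.9 ± 4.51, queens at 40.3 ± 9.89 and workers at 13.7 ± 1.49 (SD, n = 2 each). The ratio was 0.42 for drones over queens and 2.95 for queens over workers. Of the 11990 H3K27ac regions shared by all libraries, 0.142% had a mean queen height more than 2 times that of each other caste. The local background was raised here too, by 4.47 and 4.37 times in drones, 3.30 and 3.47 times in queens and 3.09 and 3.21 times in workers, and its part in the difference was not tested. The folds, which divide by that background, were 4.38 and 3.05 in drones, 9.86 and 13.2 in queens and 4.02 and 4.50 in workers.

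On either side of it were H3K27ac regions found only in queens. The lower one, at 13.1 to 13.5 kb, had folds of 8.92 and 7.82 and heights of 9.55 and 8.57, and the upper one, at 14.9 to 15.2 kb, folds of 6.27 and 4.45 and heights of 6.68 and 4.83. Queen background at both was at the genome-wide mean. The lowest H3K27ac peaks listed over such a background had heights of 2.40 and 2.57 in drone lists and 1.98 and 2.04 in worker lists. Drone and worker background at these places is not known, since their lists hold no peak there. Whether peaks of the queen heights would have been called in those lists was not tested. Regions restricted to queens made up 3.5% of all H3K27ac regions, and 2 of the 31 at Para.

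The H3K4me3 regions restricted to queens lay in the same stretch. The first, at 6454326 to 6454767 on chromosome 9, or 14.1 to 14.6 kb, sits on the common H3K27ac region and had folds of 4.37 and 3.41 and heights of 16.3 and 12.2. The second, at 14.9 to 15.2 kb, inside LOC100577999, sits on the upper H3K27ac region of queens, with folds of 6.15 and 6.75 and heights of 6.70 and 7.14. Queen background was at the genome-wide mean at the second region but raised by 3.64 and 3.54 times at the first. Listed H3K4me3 peaks over a mean background, which compare with the second region alone, went down to heights of 3.76 and 4.15 in drones and 2.10 and 2.35 in workers. Drone and worker H3K4me3 background at that region is likewise not known. Regions restricted to queens made up 7.51% of H3K4me3 regions genome-wide, and 2 of 15 at Para. Of the 1080 such regions on the placed chromosomes, 3.7% overlapped an H3K27ac region that was also restricted to queens, as the second one here did.

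All 4 of these regions remained restricted to queens with a −log10 q of at least 5, after thinning and with equal list lengths. H3K4me1 had no peak between 7.94 and 26.6 kb in any library, so the stretch did not carry that mark in these lists.

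**Figure D4:**
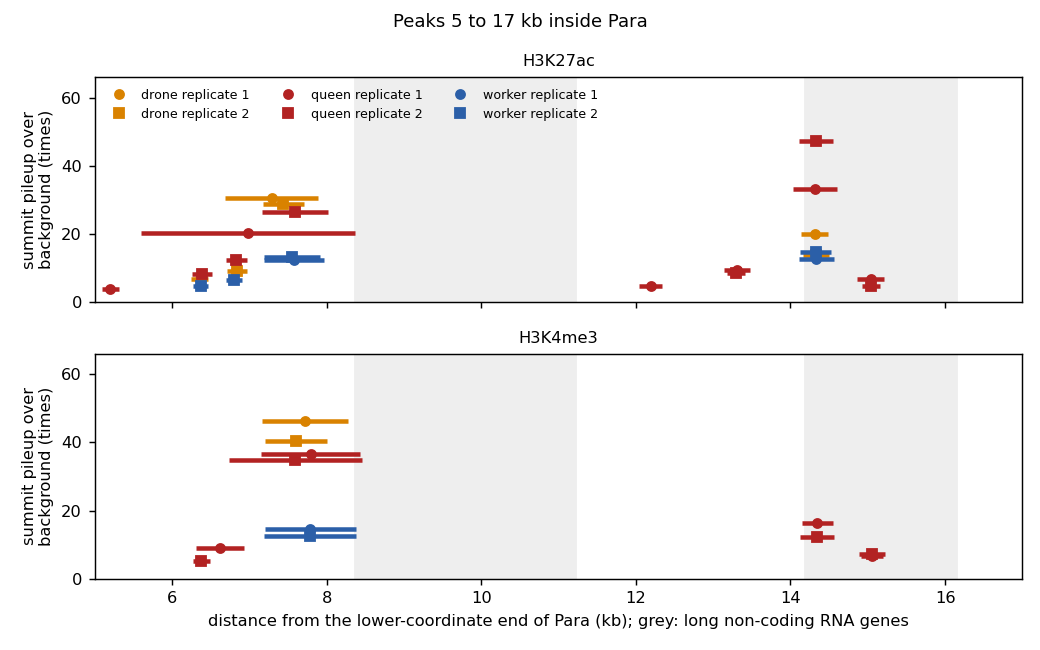
Peaks of H3K27ac and H3K4me3 from 5 to 17 kb inside Para. The horizontal axis is the distance in kb from the lower end of the gene, the vertical axis is the summit pileup over background, bars give the extent of each peak, and circles and squares are replicates 1 and 2 of drones (orange), queens (red) and workers (blue). Between 13.1 and 15.2 kb the H3K4me3 panel holds only queen peaks, and the queen H3K27ac peaks at 14.3 kb reach 33.3 and 47.2.

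Workers had H3K27ac regions of their own further along the gene, with folds close to or below the median of their lists, 3.03 and 3.21. They lay at 35.8 to 36.0 kb, with folds of 2.32 and 2.33, at 42.9 to 43.1 kb, with folds of 2.43 and 2.22, and at 57.1 to 57.4 kb, on the lower end of the lncRNA gene LOC102656759, with folds of 3.16 and 2.97. Such regions made up 3.41% of H3K27ac regions genome-wide and 3 of 31 here. After thinning or with equal list lengths the first was no longer restricted to workers, and worker H3K27ac libraries had the most kept tags of that mark. The only H3K4me3 region restricted to workers, a pattern of 2.12% genome-wide, lay at −6.58 to −6.33 kb within LOC100576876. It had folds of 3.25 and 2.54 and was not kept under any of the 3 alternatives.

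Both female castes but neither drone library had an H3K27ac region just inside the lower end of Para, from 0.786 to 1.10 kb. Its folds were 2.45 and 2.00 in queens and 1.78 and 1.70 in workers. This pattern made up 4.28% of H3K27ac regions genome-wide and 1 of 31 here, and it was lost under each of the 3 alternatives. In the deposited lists no region of any mark at Para was restricted to drones, which was so for 2.74% of H3K27ac, 0.549% of H3K4me3 and 8.78% of H3K4me1 regions in the whole series. This changed for H3K27ac under each of the 3 alternatives and without worker replicate 2, which left 1 region restricted to drones. It lay between genes, at 68.8 to 69.3 kb, with heights of 10.6 and 7.70 in drones, no peak in queens or in worker replicate 1, and 5.02 in worker replicate 2, whose −log10 q was 2.35. For H3K4me1, leaving out drone or worker replicate 2 likewise gave 1 region restricted to drones.

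The 2 H3K4me1 regions restricted to queens, a pattern of 6.21% of H3K4me1 regions genome-wide, were at 2.55 to 2.79 kb, with folds of 2.77 and 3.42, and at 53.6 to 53.8 kb, with folds of 4.41 and 4.19. Both overlapped merged H3K27ac regions shared by all castes, and both were kept under the 3 alternatives. At the first, worker replicate 2 had no H3K27ac peak, since its peaks in the merged region began at 3.075 kb. The second had the highest H3K4me1 fold in the window. The only H3K4me1 region shared by all libraries lay between genes, at −1.32 to −0.894 kb, with heights of 5.57 and 4.60 in drones, 5.85 and 5.64 in queens and 4.94 and 4.98 in workers. H3K27ac was present there in all 6 libraries as well.

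H3K4me3 at Para lay almost wholly within H3K27ac. In the consensus of both replicates, H3K4me3 covered 2763 bp of the gene in drones, 5387 bp in queens and 3614 bp in workers, and 86.1%, 97.98% and 88.8% of it was also under H3K27ac. The H3K27ac consensus was larger, at 9314 bp in drones, 11822 bp in queens and 10933 bp in workers, so most of it carried no H3K4me3. An H3K4me1 consensus existed inside the gene only in queens, with 1066 bp, of which 475 bp or 44.6% lay under H3K27ac. H3K4me3 and H3K4me1 shared no base in the consensus of any caste.

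Of 24 names of voltage-gated channel genes looked up in the RefSeq table, only 3 genes were matched, namely Para, Cac and LOC724903. Cac, on chromosome 3, is the counterpart of the Drosophila calcium channel cacophony, which triggers transmitter release at synapses. LOC724903 has the synonym Teh1, the name of a Drosophila auxiliary subunit of the sodium channel. H3K4me3 covered 1.47 ± 0.00307% of Cac in drones, 2.19 ± 0.444% in queens and 2.08 ± 0.266% in workers. On LOC724903 it covered 2.64 ± 2.01% in drones, 5.16 ± 1.55% in queens and 4.55 ± 0.841% in workers. Queen and worker values overlapped at both genes. At Para both queen values were higher, as at 37.2% of genes with H3K4me3, and over its window this was lost with equal list lengths. H3K27ac covered 12.6 ± 0.0599% of Cac in drones, 14.99 ± 2.26% in queens and 20.6 ± 1.03% in workers, with workers above both other castes. H3K27me3 peaks were absent from both genes in drones and present in 1 of 2 queen libraries and 1 of 2 worker libraries at each.

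The covered share of Para over the 24 libraries was most like that of LOC552604, LOC724599, LOC102656074, LOC726949 and LOC102655329, with Pearson r between 0.986 and 0.989 over 2477 genes of at least 10 kb. Such likeness was common, since 24.1% of the 2477 genes had r above 0.9. With the shares centred within each mark, the 5 closest genes were LOC552177, LOC409192, LOC410018, LOC102655904 and LOC409606, with r between 0.918 and 0.952, and none was in both sets. The points share libraries, and the r values are given as a description.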

How the data were processed

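The authors mapped reads with BWA (version 0.7.17) to Amel_HAv3.1 and called peaks in each library with MACS2 (version 2.2.7.1). The genome size was set to 270 Mb, and the control and other settings are not given in the sources used here. The deposited lists hold for each peak its position, the fold enrichment at the summit (a ratio to local background) and the −log10 of its p-value and q-value, and all lists end at a −log10 q of about 2. The 3 input libraries were not analysed here.

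Pileup and local background at each summit were recovered from the deposited fold, taken as pileup plus 1 over background plus 1, and the Poisson p-value. At least 99.85% of pileups came out whole within 0.05 in each list. The lowest background is the genome-wide mean, and with the shortest peak as fragment length it gives the ChIP tags that MACS2 kept, called depth in the thinning below, which is not the number of reads mapped. Depth intervals were not computed because reads were not analysed here. The recovery and the classes of regions were tested on simulated data.

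Peaks of a mark were merged where they overlapped or touched, and a library was present with 1 bp of overlap. Consensus peaks overlap a peak of the other replicate. In thinning, pileups were reduced at random to the lowest depth of the mark and kept at a −log10 p of at least 4. Groups and replicate numbers follow the sample titles. Named regions were those shared by all 6 libraries, restricted to 1 caste or to both female castes, or with the highest fold, and named genes were Para, its neighbours, matched channel genes and the 5 most like Para. These members and lists were chosen with earlier results of these data known. Pools are separate, so replicates differ in bees as well as in library preparation. Gene spans came from a RefSeq table (12398 genes, without strand, exons or sequence), and no sequence or motif was analysed here. Calculations used Python 3.11.15, pandas 2.3.3, numpy 2.4.6 and scipy 1.17.1.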

Additional observations from a re-analysis of the deposited data

How the results depend on the processing

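Kept tags and 2 libraries per caste limit the comparison of castes at Para, and thinning or shortening a list can only remove peaks. The queen-restricted regions of all marks and the absence of H3K27me3 peaks were kept under thinning, equal list lengths and the stricter q, whereas covered lengths and peak numbers moved as follows. No paired analysis was possible because no result comes from a test and the replicate numbers name separate pools. No motif search was run, since sequence was not analysed here. In the values below the cause of a change was not tested, beyond what each setting does by construction. With a −log10 q of at least 5, mean H3K4me3 peaks were 9.5 in queens and 5.5 in workers, mean H3K4me1 peaks 1.5 in drones and 2.5 in workers, over 608.5 bp and 767.0 bp, and 4 H3K4me1 regions were restricted to 1 caste. After thinning, mean H3K4me3 peaks were 7.5 in queens, over 5659.5 bp, and 5.0 in workers, and H3K4me1 covered 985.5 bp in drones and 978.5 bp in workers, with 3.5 peaks in workers. H3K27ac and H3K4me3 then shared 4270 bp of the gene in queens. With equal list lengths, mean H3K4me3 peaks were 5.5 in queens, over 4859 bp, and 4.0 in workers, over 3894.5 bp. H3K4me1 then had 1.5 peaks in drones, over 550.0 bp, and 3.5 in workers, over 978.5 bp, and 0 regions in all libraries.

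Over the gene span alone, mean H3K27ac peaks were 14 in drones, 17 in queens and 18.5 in workers, over 8959.5, 11249.5 and 11055 bp, with 7 regions in all libraries. H3K4me3 had 3.0 peaks in drones, 8.0 in queens, over 5656 bp, and 3.5 in workers, over 3577.5 bp, with 2 regions in all libraries. H3K4me1 had 2.0 peaks in drones, over 480.0 bp, and 2.5 in workers, over 717 bp, with 0 regions in all libraries. With 20 kb on each side, H3K27ac had 27.5 peaks in drones, over 15188 bp, 29.5 in queens, and 17780 bp in workers. H3K4me3 then had 6.5 peaks in drones, 13.0 in queens and 8.5 in workers. H3K4me1 had 6.0 peaks in drones, over 2042 bp, 3086 bp in queens, and 7.0 peaks in workers, over 2040 bp, with 3 regions in all libraries. Counting a library only where its peaks cover at least 50% of a region left 1 H3K4me3 region in all libraries.

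With replicates 1 alone, H3K27ac and H3K4me1 shared 161 bp in drones, 820 bp in queens and 217 bp in workers, H3K4me3 and H3K4me1 shared 206 bp in drones and 173 bp in queens, and H3K27ac and H3K4me3 shared 4683 bp in queens. With replicates 2 alone, H3K27ac and H3K4me1 shared 334 bp in drones, 697 bp in queens and 259 bp in workers, and H3K27ac and H3K4me3 shared 2841 bp in workers. Leaving out each library in turn gave between 5 and 8 H3K27ac, 3 and 8 H3K4me3 and 2 and 4 H3K4me1 regions restricted to 1 caste. The highest correlation of a gene with Para was 0.952 with shares centred within each mark. The other 275 values of the main results moved by less than the replicate spread, or by at most 1.5 times for counts.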
